A study of Homo sapiens with 6 samples.

Results

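The CRMP and dihydropyrimidinase-like genes are a family of 6 related genes, CRMP1, DPYSL2, DPYSL3, DPYSL4, DPYSL5 and DPYS, and each was found once, by its symbol, among the 58870 genes of the count table. The family was chosen by symbol when its counts in wild-type and THUMPD1 knockout cells, above all the higher CRMP1 and DPYSL3 counts of the knockout, were already known, so the differences of its members between genotypes are given as descriptions and carry no test. Total RNA of HEK-293T, a human line derived from embryonic kidney and grown in DMEM, was depleted of ribosomal RNA and sequenced in 6 libraries. Of these, 3 came from wild-type cells (WT, labelled Thumpd+/+) and 3 from cells with THUMPD1 knocked out by CRISPR-Cas9 editing (THUMPD1 KO, labelled Thumpd-/-). THUMPD1 helps the acetyltransferase NAT10 to acetylate a cytidine of the tRNAs that read Leu and Ser codons. The KO cells were obtained by single-cell sorting after editing and WT cells were the line itself, so the clone and the loss of THUMPD1 cannot be told apart. The labels number the libraries of each genotype 1 to 3 but do not say whether these were separate cultures, so p values measure only the spread between these libraries.

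Collapsin response mediator proteins (CRMPs) are cytosolic phosphoproteins of developing neurons. They pass the signal of semaphorin 3A, received by neuropilin and plexin receptors, to microtubules and actin in the growth cone, and kinases such as CDK5 and GSK3B switch their binding to tubulin off. They descend from the same ancestor as dihydropyrimidinase (DPYS), an enzyme of liver and kidney that opens the ring of dihydrouracil and dihydrothymine, but do not have this enzyme activity themselves. Among the members, DPYSL2 (CRMP2) binds tubulin dimers and promotes axon growth, and DPYSL3 (CRMP4) bundles actin. DPYSL4 is CRMP3, and DPYSL5 (CRMP5) counters the effect of DPYSL2 on neurite outgrowth.

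Gene levels are in counts-per-million units (CPM), that is, the expected count of a gene scaled to the total of its library. Library totals lay between 32225646 and 44099898, which makes 1 CPM worth 32.2 to 44.1 read pairs. THUMPD1 itself lay between 77.3 and 84.6 CPM in the WT libraries and between 10.2 and 12 CPM in the THUMPD1 KO libraries, a log2 fold change (KO over WT) of −2.87. The 15088 genes that reached 1 CPM in 3 or more libraries were fitted with limma-voom, and a gene was called when its p value adjusted over all of them by the Benjamini-Hochberg method was under 0.05. In this fit 26.7% of tested genes were called, 13.7% higher and 13% lower in THUMPD1 KO, and 0.835% had a log2 fold change of at least 1. The median log2 fold change of all tested genes was 0.016 and their median standard error 0.070. Without KO replicate 2 the number of calls was 2663 in place of 4025.

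CRMP1 (ENSG00000072832.14; GRCh38 chromosome 4, 5748084 to 5893086, minus strand) was under 1 CPM in every WT library and was 7.38 times higher in THUMPD1 KO cells. WT replicates 1, 2 and 3 held 19, 20 and 24 counts, or 0.451, 0.511 and 0.644 CPM. THUMPD1 KO replicates 1, 2 and 3 held 139, 162 and 148 counts, or 3.58, 3.67 and 4.59 CPM. The lowest KO library was thus well above the highest WT library. The exact 95% interval was 0.272 to 0.704 CPM for WT replicate 1, the lowest value (intervals here cover counting error only). The means were 0.535 ± 0.0987 CPM in WT and 3.95 ± 0.561 CPM in KO (SD, n = 3 each), and the fitted log2 fold change was 2.88 (SE 0.24). It lay between 2.70 without WT replicate 1 and 3.14 without WT replicate 3. No WT library reached 1 CPM, so CRMP1 entered the fit only through the 3 KO libraries and had to differ between the genotypes to be tested at all. Among the tested genes its level stood between the 0.146th and 0.623rd percentile of each WT library, and between the 17.5th and 21.2nd percentile of each KO library. The low WT place follows from the same filter, since the ranking holds 15088 of the 31730 genes with any count and leaves out most genes under 1 CPM.

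DPYSL3 (ENSG00000113657.13; chromosome 5, 147390808 to 147510068, minus strand) was the other member with a difference of several fold. It stood at 9.69, 11.6 and 11.2 CPM in WT replicates 1, 2 and 3 (408, 456 and 417 counts). In THUMPD1 KO replicates 1, 2 and 3 it stood at 38.7, 37.3 and 39.4 CPM (1503, 1647 and 1271 counts). All KO values were above all WT values, and the spread within each genotype was small beside the gap. The mean was 10.8 ± 1.02 CPM in WT and 38.5 ± 1.06 CPM in KO (SD, n = 3 each), a ratio of 3.55 and a fitted log2 fold change of 1.83 (SE 0.085). Leaving out WT replicate 1 gave 1.72 and leaving out WT replicate 2 gave 1.90, the lowest and highest of such fits. DPYSL3 lay between the 30.8th and 34.8th percentile of tested genes in WT libraries and between the 60.4th and 61.8th in KO libraries.

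DPYSL4 and DPYSL2 were higher in THUMPD1 KO cells by much less. DPYSL4 (ENSG00000151640.13; chromosome 10, 132186948 to 132205759, plus strand) stood at 8.17, 9.85 and 8.96 CPM in WT replicates 1, 2 and 3 and at 13.0, 10.5 and 11.9 CPM in KO replicates 1, 2 and 3. The genotypes did not overlap, but WT replicate 2 and KO replicate 2 were close to each other. The fitted log2 fold change was 0.39 (SE 0.10), with means of 8.99 ± 0.845 and 11.8 ± 1.23 CPM (SD, n = 3 each), and it lay between 0.29 and 0.47 when a library was left out. DPYSL2 (ENSG00000092964.18; chromosome 8, 26514031 to 26658178, plus strand) stood at 50.3, 47.5 and 50.7 CPM in WT replicates 1, 2 and 3 and at 58.2, 52.8 and 56.7 CPM in KO replicates 1, 2 and 3. Here too every KO library was above every WT library, by a narrow margin for KO replicate 2. The means were 49.5 ± 1.74 and 55.9 ± 2.78 CPM (SD, n = 3 each) and the log2 fold change was 0.17 (SE 0.051).

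DPYSL5 and DPYS were lower in THUMPD1 KO cells. DPYSL5 (ENSG00000157851.17; chromosome 2, 26847747 to 26950351, plus strand), the most abundant member, stood at 90.0, 90.5 and 96.8 CPM in WT replicates 1, 2 and 3 and at 87.4, 79.6 and 85.2 CPM in KO replicates 1, 2 and 3. WT replicate 1 and KO replicate 1 were the nearest values and did not cross. The means were 92.4 ± 3.81 and 84.05 ± 4.01 CPM (SD, n = 3 each), with a log2 fold change of −0.14 (SE 0.050). DPYS (ENSG00000147647.13; chromosome 8, 104330324 to 104467055, minus strand) had 12, 14 and 15 counts in WT replicates 1, 2 and 3 and 9, 6 and 4 counts in KO replicates 1, 2 and 3. That is 0.348 ± 0.0593 CPM in WT and 0.164 ± 0.0589 CPM in KO (SD, n = 3 each), under 1 CPM everywhere, so DPYS was not tested. The exact 95% interval of its lowest WT value was 0.147 to 0.498 CPM, which is wide at this depth. No member overlapped between genotypes, which also held for 42.2% of all tested genes, and nothing is read from it for a family chosen with these values in view.

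**Figure D1:**
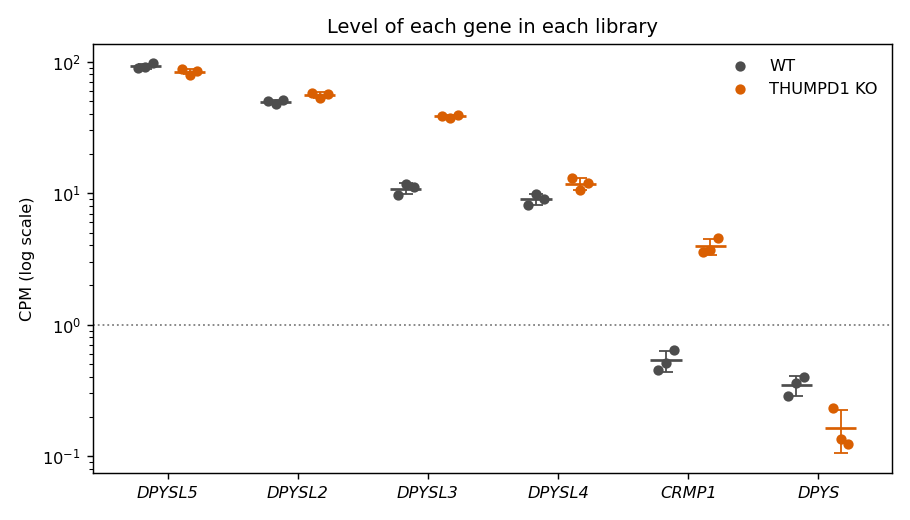
CPM of each family member in each library on a log axis, with the 3 WT libraries in grey and the 3 THUMPD1 KO libraries in orange (long bar, mean; short bars, SD; dotted line, 1 CPM). CRMP1 crosses the dotted line between genotypes, from a mean of 0.535 to 3.95 CPM, DPYSL3 goes from 10.8 to 38.5 CPM, DPYS goes from 0.348 to 0.164 CPM, and DPYSL2, DPYSL4 and DPYSL5 lie close to their WT level on this scale.

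To compare members with each other, CPM was divided by the length of each gene's annotated exons (7048 bases for DPYSL5, 7296 for DPYSL2, 7179 for DPYSL3, 3111 for DPYSL4, 5869 for CRMP1 and 3813 for DPYS). In WT cells the order by level per kilobase of exon was DPYSL5 with 13.1 ± 0.540 CPM per kb, DPYSL2 with 6.79 ± 0.239, DPYSL4 with 2.89 ± 0.272 and DPYSL3 with 1.51 ± 0.143 (SD, n = 3), and none of these 4 overlapped with the next. DPYS with 0.0913 ± 0.0156 and CRMP1 with 0.0912 ± 0.0168 CPM per kb came last and overlapped. In THUMPD1 KO cells DPYSL5 with 11.9 ± 0.569 and DPYSL2 with 7.66 ± 0.382 CPM per kb kept the first places. DPYSL3 with 5.36 ± 0.148 stood above DPYSL4 with 3.80 ± 0.395, and CRMP1 with 0.673 ± 0.0955 stood above DPYS with 0.0430 ± 0.0155 CPM per kb, with no overlap between neighbours. The order of DPYSL3 and DPYSL4 in WT cells depended on the length used, since per kilobase of coding sequence they overlapped at 5.28 ± 0.499 and 5.24 ± 0.492 CPM per kb, while the KO order was the same.

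Summed over the 6 genes, the family stood at 24.5 ± 0.788 CPM per kb of exon in WT and 29.5 ± 1.49 in THUMPD1 KO cells. DPYSL5, the member known to oppose DPYSL2, made up 53.6% of this sum in WT and 40.5% in KO. DPYSL2 made up 27.7% and 26.0%, and DPYSL4 11.8% and 12.9%. The share of DPYSL3 was 6.16% in WT and 18.2% in KO, the largest gain of the 6, while CRMP1 came to 0.371% and 2.28%. The shares depended on the length used, and per kilobase of coding sequence DPYSL5 made up 60.7% in WT and 47.4% in KO, DPYSL4 5.83% and 6.55%, and DPYSL3 5.87% and 17.9%. In bulk RNA, more cells with a transcript and more transcript per cell cannot be told apart.

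**Figure D2:**
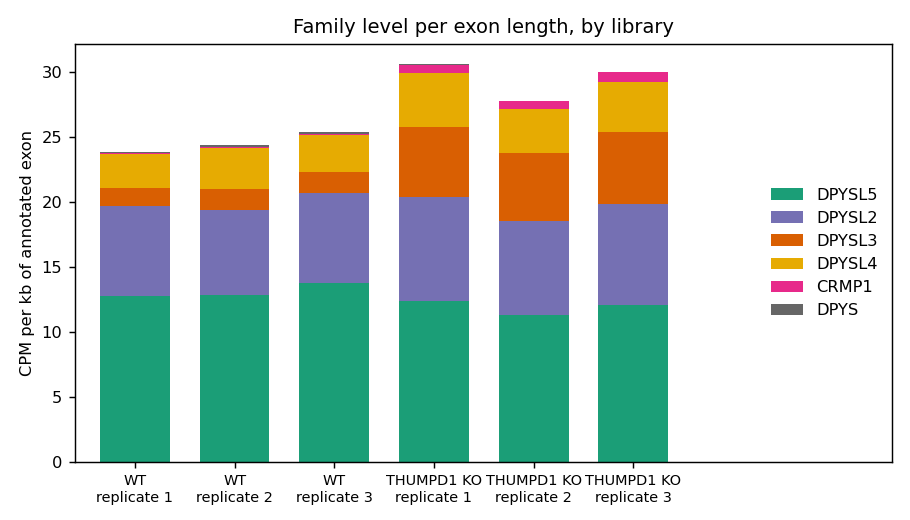
Level of the 6 family members in each library, stacked, in CPM per kb of annotated exon. The DPYSL3 layer is 6.16% of the mean WT bar and 18.2% of the mean KO bar, and the DPYSL5 layer falls from 53.6% to 40.5%.

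The 250 bases before the annotated canonical start are shown for 4 members, since no promoter entry was used for DPYSL2 and DPYS. They set CRMP1 and DPYSL3, the genes with the largest differences, beside DPYSL4 and DPYSL5, which differed less. The sequences are from RefSeq's GRCh38 promoter table, written 5′ to 3′ on the strand of the gene, with CG pairs in capitals. They cover chr4:5893087-5893336 (CRMP1, minus strand), chr5:147510069-147510318 (DPYSL3, minus strand), chr10:132186698-132186947 (DPYSL4, plus strand) and chr2:26847882-26848131 (DPYSL5, plus strand).
CRMP1: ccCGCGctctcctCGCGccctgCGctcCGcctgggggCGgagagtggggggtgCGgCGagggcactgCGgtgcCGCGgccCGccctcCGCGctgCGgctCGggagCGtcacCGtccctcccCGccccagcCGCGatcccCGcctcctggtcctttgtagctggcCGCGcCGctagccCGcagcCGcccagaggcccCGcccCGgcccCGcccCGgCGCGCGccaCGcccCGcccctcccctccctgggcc
DPYSL3: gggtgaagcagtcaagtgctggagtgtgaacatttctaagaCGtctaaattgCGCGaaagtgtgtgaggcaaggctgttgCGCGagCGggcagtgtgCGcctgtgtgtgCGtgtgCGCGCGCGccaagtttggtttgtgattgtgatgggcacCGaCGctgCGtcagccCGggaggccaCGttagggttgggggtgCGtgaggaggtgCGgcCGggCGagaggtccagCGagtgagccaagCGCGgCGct
DPYSL4: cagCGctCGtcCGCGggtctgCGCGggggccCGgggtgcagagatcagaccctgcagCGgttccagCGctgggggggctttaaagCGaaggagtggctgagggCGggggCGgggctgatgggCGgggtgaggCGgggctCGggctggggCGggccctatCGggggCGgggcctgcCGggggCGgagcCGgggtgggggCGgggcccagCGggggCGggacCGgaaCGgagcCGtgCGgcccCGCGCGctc
DPYSL5: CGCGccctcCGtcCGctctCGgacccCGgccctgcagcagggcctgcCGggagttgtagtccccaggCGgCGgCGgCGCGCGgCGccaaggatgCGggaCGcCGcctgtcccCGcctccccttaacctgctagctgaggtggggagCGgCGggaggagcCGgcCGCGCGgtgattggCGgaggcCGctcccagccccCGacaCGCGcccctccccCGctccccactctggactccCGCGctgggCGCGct
CRMP1 had 37 CG pairs, DPYSL5 34, DPYSL4 31 and DPYSL3 25, against a median of 11 over the 35116 promoters of the table. Their GC content was 82.8, 78.0, 80.0 and 62.8% in the same order, against a median of 58.0%. GGGCGG, searched on both strands with overlaps counted, occurred 7 times in CRMP1 and 8 times in DPYSL4 and was not found in DPYSL3 or DPYSL5, while 42.6% of all promoters held it. CCAAT occurred once, in DPYSL5 (32.0% of all promoters held it), and TATAAA in none of the 4 windows (10.7% of all promoters). CRMP1 and DPYSL3 thus had the highest and the lowest GC content of the 4. Gene counts do not show which start site was used.

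The coding sequences of the members are alike but not close enough to share many reads. CRMP1 was identical to DPYSL2 at 73.3% of aligned coding bases, to DPYSL3 at 73.1%, to DPYSL4 at 70.8%, to DPYS at 67.1% and to DPYSL5 at 65.0%. The closest pair was DPYSL2 and DPYSL4 (74.7%) and the most distant DPYSL4 and DPYSL5 (64.3%). Of stretches of 31 bases, CRMP1 and DPYSL2 had 4 in common and no other members any. With genes outside the family, CRMP1, DPYSL3, DPYSL4 and DPYS had no such stretch in common on the same strand, DPYSL2 had 32 and DPYSL5 214 (3.05% of its own). All 6 coding sequences held few Leu codons, between 5.76% of codons in DPYSL2 and 7.27% in DPYSL5, which placed them between the 6.17th and 15.9th percentile of 19775 genes (median 9.99%). Ser codons ranged from 4.62% in DPYS (percentile 7.1) and 5.32% in DPYSL5 (percentile 12.7) to 7.98% in DPYSL2 (percentile 55.9), against a median of 7.65%. In total Leu, CRMP1 and DPYSL3 (6.41 and 5.85%) lay within the range of the members that differed little between genotypes. UUA, UUG, CUA and CUU made up 34.1% of Leu codons in CRMP1 and 22.5% in DPYSL3, the highest and lowest of the 6. The share was 25.6% in DPYSL2, 27.0% in DPYSL4, 24.4% in DPYSL5 and 30.3% in DPYS (median of all genes 38.2%). The part of codon content in the differences was not tested.

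On the opposite strand, CRMP1 overlaps EVC, a ciliary gene, and 130 stretches of 31 bases (2.22%) of CRMP1 occur in antisense in other transcripts. The libraries were stranded, but whether counting used strand is not given in the sources used here, so reads of the pair cannot be assigned with certainty. EVC stood at 36.4 ± 3.46 CPM in WT and 34.8 ± 1.75 CPM in KO (SD, n = 3 each), with overlapping libraries, a log2 fold change of −0.07 and an adjusted p of 0.510. The part of EVC reads in the CRMP1 counts was not tested. DPYSL2 overlaps the start of PNMA2, a neuronal antigen gene, on the opposite strand, and PNMA2 was called higher in KO (36.0 ± 1.76 to 46.8 ± 2.25 CPM, log2 fold change 0.38, adjusted p = 5.84e-04). The part of this overlap in the small DPYSL2 difference was not tested.

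Near the members, genes were called at a share close to that of all tested genes (26.7%). Of 47 tested genes within 500 kb of a member 11 (23.4%) were called, 7 higher and 4 lower, with a median log2 fold change of 0.04. With the replicate number as a block 19 were called, beside 5297 of all 15088 tested genes. Without WT replicate 3 the number was 7, beside 2724 of all tested genes. Around CRMP1, 1 of 5 tested genes was higher and 1 lower (median −0.07), and the only tested gene near DPYSL3, JAKMIP2, stood at 7.46 ± 1.09 and 8.05 ± 0.334 CPM (SD, n = 3; log2 fold change 0.12, adjusted p = 0.530). The highest value of any neighbour of CRMP1 was 0.43. Within 2 Mb of each member the median log2 fold change was 0.07 at CRMP1 (26 genes), 0.08 at DPYSL2 (25 genes), 0.07 at DPYSL3 (16 genes), −0.01 at DPYSL4 (19 genes) and −0.04 at DPYSL5 (49 genes). None of these 2 Mb stretches was displaced as a whole by more than 0.1. Closer to DPYSL2, within 500 kb, 3 of 5 tested genes were higher and 0 lower. Their median was 0.23, beside 0.17 for DPYSL2 itself. One of them was BNIP3L, 8.39 kb from DPYSL2 (log2 fold change 0.23, adjusted p = 0.00907). The part of this surrounding in the DPYSL2 difference was not tested. CENPA, the centromeric histone H3 variant below DPYSL5, was higher (26.5 ± 0.945 to 30.8 ± 0.408 CPM, log2 fold change 0.23, adjusted p = 0.0136), a call lost without WT replicate 3 (0.0501; range 0.00763 to 0.0501 over 11 alternatives). MAPRE3, a microtubule end-binding protein on its other side, was not called (−0.16, adjusted p = 0.231). Near DPYSL4, STK32C was not called (−0.01, adjusted p = 0.968). RIMS2, a gene of synaptic vesicle release next to DPYS, was higher at 1.15 ± 0.138 and 3.37 ± 0.314 CPM (SD, n = 3; log2 fold change 1.44, adjusted p = 1.83e-04).

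Related genes recur beside the members. PPP2R2 genes, which encode regulatory B subunits of protein phosphatase 2A, lie near 4 of them (chosen for mention after their values were seen). PPP2R2D, 227 kb from DPYSL4, was higher in THUMPD1 KO (35.1 ± 1.5 to 42.8 ± 1.02 CPM, log2 fold change 0.29, adjusted p = 0.00327), and was called in all 11 alternatives. PPP2R2C, 427 kb from CRMP1, was higher (3.20 ± 0.377 to 4.51 ± 0.351 CPM, 0.43, adjusted p = 0.0193), but not without WT replicate 2 (0.0686), WT replicate 3 (0.0670) or KO replicate 3 (0.0691). PPP2R2A, 141 kb from DPYSL2, was higher (111 ± 7.75 to 127 ± 2.55 CPM, 0.18, adjusted p = 0.0320), a call lost with edgeR (0.0653), TMM library sizes (0.0560) and no CPM filter (0.0662). It was also lost without WT replicates 1 (0.0541) or 3 (0.0561) and without KO replicates 1 (0.0526), 2 (0.109) or 3 (0.0872). PPP2R2B, 306 kb from DPYSL3, was at 0 in WT and 0.0103 CPM in KO and was not tested. JAKMIP1, whose product binds microtubules and whose relatives lie near DPYSL3 and DPYSL4, is 133 kb from CRMP1. It was lower (2.12 ± 0.119 to 1.54 ± 0.212 CPM, log2 fold change −0.56, adjusted p = 0.0212), a call lost with DESeq2 (0.137), with no CPM filter (0.0555), without WT replicates 2 (0.0691) or 3 (0.0553) and without KO replicates 2 (0.0908) or 3 (0.0639).

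**Figure D3:**
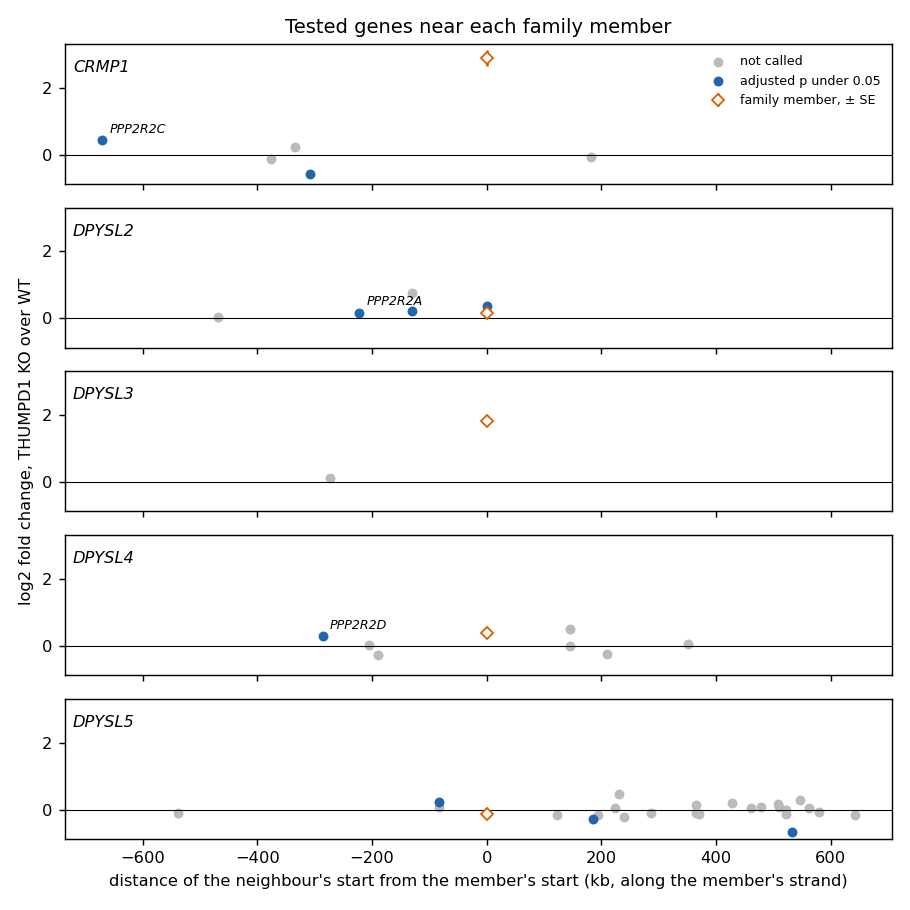
Log2 fold change (KO over WT) of each tested gene within 500 kb of a member's ends, plotted against the distance of its start from the member's start in kb along the member's strand (negative, upstream), with the member as an orange diamond ± SE. CRMP1 at 2.88 and DPYSL3 at 1.83 stand above every tested gene around them, the highest of which is at 0.43 for CRMP1 and 0.12 for DPYSL3.

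The tested genes whose levels followed CRMP1 most closely over the 6 libraries, by Pearson's r on the voom log2 scale, were SRA1 (0.997), MED6 (0.996), PUDP (0.995), OGFOD1 (0.995) and MPZL1 (0.994). With 3 libraries of each genotype, such values mostly describe a steady difference between genotypes, and 476 genes exceeded 0.95. The differences of these 5 genes were far smaller than that of CRMP1, with log2 fold changes from 0.15 for OGFOD1 to 0.44 for PUDP. Within the family the same measure was 0.985 for DPYSL3 with CRMP1, 0.910 for DPYSL2, 0.850 for DPYSL4 and −0.72 for DPYSL5.

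Upstream of the CRMPs, semaphorin ligands were lower where they were called. Of 20 semaphorin genes 18 were tested, and 6 were lower and 0 higher by limma-voom (33.3% called beside 26.7% of all tested genes, median log2 fold change −0.19), or 3 without WT replicate 2. edgeR and DESeq2 each called 5 lower and 0 higher, and at an unadjusted p under 0.05 limma-voom had 8 lower and 0 higher. SEMA3C, a secreted guidance cue, had the largest change, from 25.7 ± 0.761 to 12.7 ± 1.04 CPM (log2 fold change −1.01, SE 0.066, adjusted p = 4.75e-06). SEMA3A, the mammalian counterpart of collapsin after which the CRMPs were named, fell from 13.3 ± 0.686 to 10.4 ± 0.764 CPM (−0.35, adjusted p = 0.0136). This call was lost without WT replicate 2 (0.0518) and without KO replicate 3 (0.0599; range 0.00287 to 0.0599). The membrane-bound SEMA6A fell from 119.5 ± 6.14 to 103 ± 0.994 CPM (−0.24, adjusted p = 0.00420) and SEMA6B from 6.24 ± 0.535 to 4.50 ± 0.287 CPM (−0.52, adjusted p = 0.00457).

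The receptors moved in both directions. Of 11 plexin and neuropilin genes 10 were tested, with 1 higher and 3 lower (40% called beside 26.7% of all tested genes, median log2 fold change −0.02). The number called was 2 without WT replicate 2, without WT replicate 3 or without KO replicate 3. NRP1, which binds SEMA3A, fell from 45.0 ± 3.67 to 37.0 ± 1.57 CPM (−0.28, adjusted p = 0.00798). PLXNB2, a receptor for class 4 semaphorins, fell from 81.9 ± 6.89 to 62.2 ± 3.11 CPM (−0.40, adjusted p = 9.93e-04), in a stretch of chromosome 22 whose 29 tested genes within 2 Mb had a median of −0.33. The calls of PLXND1 (0.34, adjusted p = 0.0203) and PLXNC1 (−0.77, adjusted p = 0.0351) did not hold throughout. PLXND1 was lost with no CPM filter (0.0566) and without WT replicate 2 (0.0729), WT replicate 3 (0.0693), KO replicate 1 (0.0718) or KO replicate 3 (0.0651). PLXNC1 was lost with edgeR (0.0844), DESeq2 (0.151), TMM (0.0679) and no CPM filter (0.0904), and without any library but KO replicate 1 (0.0544 to 0.151). The class A plexins that pair with neuropilins were not called, with log2 fold changes of 0.08 for PLXNA1, 0.13 for PLXNA2, 0.15 for PLXNA3 and 0.14 for PLXNA4, and neither was NRP2 (−0.12, adjusted p = 0.238). PLXNA1 was called without WT replicate 1 (adjusted p = 0.0318), and PLXNA3 with the replicate block (0.0413 against 0.0910).

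CDK5 and GSK3B, which act in turn on the same tail of CRMPs, were not called. CDK5 was at 25.7 ± 1.96 and 23.0 ± 1.18 CPM (−0.15, adjusted p = 0.155) and GSK3B at 118 ± 4.71 and 121 ± 2.50 CPM (0.01, adjusted p = 0.855). CDK5 was called without WT replicate 1 (0.0156). Of 18 kinases and regulators 15 were tested, with 3 higher and 2 lower (33.3% called beside 26.7% of all tested genes, median 0.01), or 3 called without KO replicate 3. DYRK1A, another kinase of CRMPs, rose from 102 ± 1.71 to 118 ± 1.94 CPM (0.19, adjusted p = 0.00469), where 25 tested genes within 2 Mb had a median of 0.15. CAMK2B, a calcium-dependent kinase, fell from 5.30 ± 0.0620 to 3.75 ± 0.250 CPM (−0.56, adjusted p = 0.00448).

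Among partners and effectors on the way to the cytoskeleton all 23 genes were tested, with 2 higher and 8 lower. That is 43.5% called beside 26.7% of all tested genes, with a median of −0.04. LIMK1 and LIMK2, the kinases that inactivate cofilin, fell from 37.4 ± 1.51 to 29.4 ± 0.911 CPM (−0.35, adjusted p = 9.60e-04) and from 22.7 ± 2.44 to 17.6 ± 1.20 CPM (−0.35, adjusted p = 0.00878). LIMK2 lies on chromosome 22, where 49 tested genes within 2 Mb had a median of −0.34. MICAL3, also among the 8 lower genes, lies on the same chromosome, where 47 tested genes within 2 Mb of it had a median of −0.32. MICAL2, an actin-oxidizing enzyme, fell from 14.8 ± 2.20 to 10.8 ± 0.476 CPM (−0.46, adjusted p = 0.00490), and KLC1, the kinesin light chain that links DPYSL2 to its motor, rose from 104 ± 3.13 to 122 ± 3.11 CPM (0.21, adjusted p = 0.00465).

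Neuronal microtubule genes changed in both directions. Of 19 genes 14 were tested, with 3 higher and 4 lower (50% called beside 26.7% of all tested genes, median −0.11). KIF5C, a neuronal kinesin heavy chain, rose from 17.4 ± 0.479 to 42.2 ± 2.00 CPM (log2 fold change 1.28, SE 0.060, adjusted p = 3.56e-07), and TUBB3, the neuronal tubulin, from 3.22 ± 0.210 to 5.13 ± 0.600 CPM (0.60, adjusted p = 0.00569). The microtubule-associated proteins MAP1B and MAPT fell, from 191 ± 11.6 to 134 ± 5.50 CPM (−0.53, adjusted p = 6.34e-05) and from 15.6 ± 0.351 to 11.1 ± 0.186 CPM (−0.48, adjusted p = 8.72e-04).

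Because CRMPs are themselves neuronal genes, other neuronal markers were set beside them. Of 19 markers 13 were tested, with 5 higher and 3 lower (61.5% called beside 26.7% of all tested genes, median 0.08). The number called was 5 without WT replicate 3 or without KO replicate 2. The neurofilament gene NEFM fell from 44.7, 28.2 and 33.1 CPM in WT replicates 1, 2 and 3 to 6.72, 4.54 and 4.75 CPM in KO replicates 1, 2 and 3 (log2 fold change −2.75, SE 0.21, adjusted p = 1.30e-05). UCHL1, a neuronal ubiquitin hydrolase, fell from 100.02 ± 0.761 to 61.0 ± 4.73 CPM (−0.72, adjusted p = 9.06e-06). GAP43, a growth cone protein, rose from 1.18 ± 0.160 to 2.43 ± 0.261 CPM (0.95, adjusted p = 0.00208) and the filament protein INA from 33.0 ± 1.51 to 41.6 ± 1.95 CPM (0.33, adjusted p = 0.00283). The summed level of the 19 markers lay between 338 and 363 CPM in WT libraries and between 292 and 328 CPM in KO libraries. This order turned without NEFM and UCHL1 (left out after their values were seen), since the other 17 summed to 209.7 to 219 CPM in WT and 229 to 254 CPM in KO libraries. The part of these markers in the CRMP1 and DPYSL3 differences was not tested. ELAVL3 and ELAVL4 were the 2 of 19 markers with at most 3 counts in any library. Others were expressed, with WT and KO means of 32.6 and 29.0 CPM for ELAVL2 and 20.9 and 21.8 CPM for SYP. NEFL stood at 55.5 and 68.9 CPM (log2 fold change 0.31), where 22 tested genes within 2 Mb had a median of 0.18. RBFOX3 stood at 1.48 and 2.58 CPM. Of 14 kidney markers 7 were tested, 3 were called higher and 5 had at most 3 counts in any library, PAX8, CDH16, SLC12A1, UMOD and NPHS1 (the last 4 of differentiated nephron cells). Their sum was 148 to 159 CPM in WT and 152 to 167 CPM in KO libraries. Of 8 glial markers 4 were tested and 1 was called, lower. This was MBP, which fell from 4.83 ± 0.313 to 1.36 ± 0.389 CPM (log2 fold change −1.95, adjusted p = 3.35e-05). The sum of the 8 was 80.2 to 99.2 CPM in WT and 81.2 to 102 CPM in KO libraries. Most of this sum was SLC1A3, with means of 81.7 CPM in WT and 85.5 CPM in KO, so it says little about the others.

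REST, the repressor of neuronal genes in cells that are not neurons, was not called and stood at 101 ± 1.60 and 103 ± 1.34 CPM (SD, n = 3; log2 fold change 0.02, SE 0.040, adjusted p = 0.726). Of 12 genes of REST and its corepressors all were tested and 1 was called lower (8.33% called beside 26.7% of all tested genes). This was the histone methyltransferase EHMT2, which fell from 93.5 ± 6.04 to 79.8 ± 1.84 CPM (−0.24, adjusted p = 0.00627). With the replicate block 2 of the list were called, beside 5297 of all 15088 tested genes.

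The enzymes that work with DPYS in pyrimidine breakdown were nearly silent in both genotypes. DPYD, the enzyme before DPYS, stood at 0.0861 ± 0.0441 and 0.199 ± 0.104 CPM and UPB1, the enzyme after it, at 0.479 ± 0.286 and 0.160 ± 0.131 CPM (SD, n = 3 each), and neither was tested. Of 16 genes of pyrimidine breakdown and synthesis 10 were tested, with 1 higher and 0 lower by limma-voom (10% called beside 26.7% of all tested genes). edgeR and DESeq2 each called 0. The median was 0.10, with 5 higher and 1 lower at an unadjusted p under 0.05 by limma-voom. The call was CTPS1, CTP synthase, at 225 ± 5.41 and 251 ± 11.8 CPM (0.14, adjusted p = 0.0370). It was lost with edgeR (0.119), DESeq2 (0.0667), TMM (0.0897) and no CPM filter (0.0506), without WT replicates 1 (0.0578) or 3 (0.131) and without KO replicates 2 (0.142) or 3 (0.106). With the replicate block 5 were called higher and 1 lower, beside 5297 of all 15088 tested genes called in that fit. Without WT replicate 3 the count was 0, and without KO replicate 3 the only call was a lower gene.

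**Figure D4:**
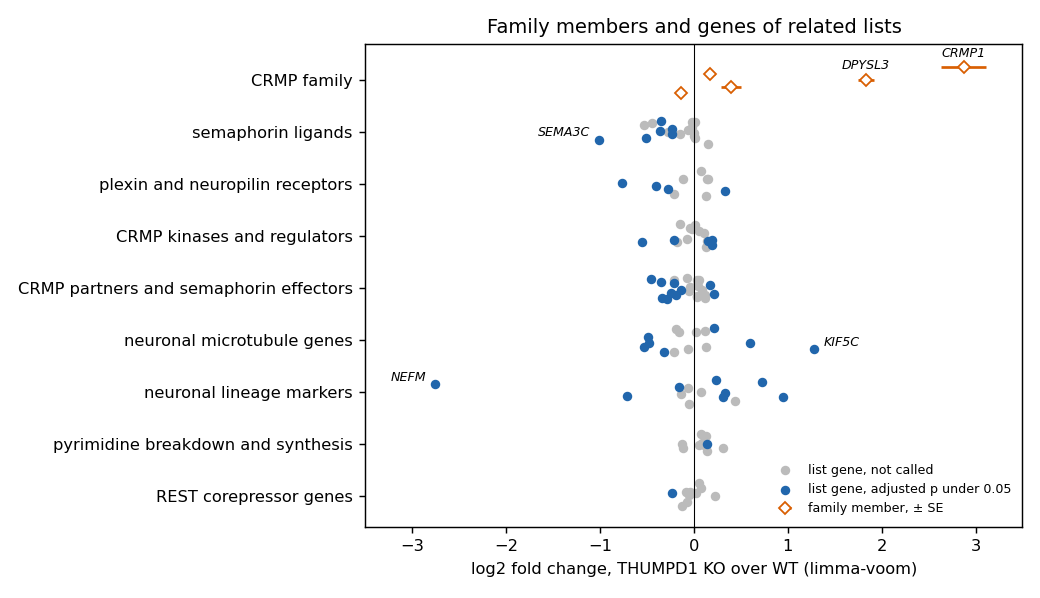
Log2 fold change (KO over WT, limma-voom) of the 5 tested family members (orange diamonds, bars ± SE) and of the tested genes of 8 related lists, called in blue and not called in grey, with symbols at a size of at least 1. CRMP1 at 2.88 and DPYSL3 at 1.83 lie to the right of every list gene, KIF5C at 1.28 is the highest of these and NEFM at −2.75 the lowest.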

How the data were processed

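The deposited table holds RSEM expected counts per gene, estimated read counts that need not be whole and are not scaled between libraries, which the authors made from reads aligned to GRCh38 with STAR. CPM, means and SDs were computed from these counts and library totals. Positions, exon and coding lengths and transcripts came from GENCODE 44 (58472 IDs found). The study methods name a later GENCODE release for the counts. Exon lengths, and with them the levels per kilobase and family shares, may thus differ from those of the annotation that was counted. As in the methods of the study, genes under 1 CPM were removed (kept here with 1 CPM or more in 3 or more libraries, 99.7 to 99.8% of counts). Quantile normalization and limma-voom followed (limma 3.58.1, R 4.3.3), with genotype as the only term and two-sided tests. The fit was tested on simulated data, which held no pairing of libraries, and no result here rests on that simulation. Alternatives were edgeR 4.0.16 (quasi-likelihood) and DESeq2 1.42.0 on counts rounded to whole numbers, TMM, no CPM filter, the replicate number as a block (replicate block), and fits without each library. Same-numbered libraries of both genotypes deviated together (r = 0.263, 0.314 and 0.160 for replicates 1, 2 and 3 over 11688 genes). The other pairs lay between −0.300 (WT replicate 2 with KO replicate 1) and 0.126 (WT replicate 2 with KO replicate 3). The numbers may thus pair the libraries, least clearly for replicate 3. The main fit and its p values leave such a pairing out, and only the replicate block takes it in.

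The members, the 8 lists and the rules were chosen with earlier results of these data known. Named were the members, a fixed set (THUMPD1, NRP1, NRP2, PLXNA1 to PLXNA4, SEMA3A, CDK5, GSK3B, DPYD, UPB1, REST, TUBB3), at most 4 called genes of each list by smallest adjusted p, the nearest tested neighbours and the 5 genes most like CRMP1. Neighbours known only by an identifier were counted but not described. Some genes that the rule names are not reported here. Intervals are exact binomial (Clopper-Pearson, 95%).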

Additional observations from a re-analysis of the deposited data

How the results depend on the processing

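The direction of each of the 5 tested members was the same in all alternatives. With a library left out, the log2 fold change of CRMP1 lay between 2.70 and 3.14 and that of DPYSL3 between 1.72 and 1.90. Leaving out a library gave 2663 to 4245 called genes over all tested genes, 3 to 6 of the semaphorins, 2 to 4 of the receptors, 3 to 6 of the kinases and regulators, 5 to 8 of the neuronal markers, 0 to 1 of the pyrimidine genes and 7 to 16 of the neighbours. With the replicate block 5297 of all tested genes were called, against 4025 in the main fit. In that fit 6 pyrimidine genes, 2 genes of the REST list and 19 neighbours were called, and no other list count moved by over 1.5 times. Among the named genes the block added 2 calls and left 43 on their side of the threshold. edgeR, DESeq2 and TMM each called 0 pyrimidine genes, DESeq2 and TMM each called 2 genes of the REST list, and 2 receptors were called with no CPM filter. The causes were not tested, beyond the loss of 1 library in each leave-one-out fit. Per kilobase of coding sequence, CRMP1 stood at 0.260 and DPYS at 0.224 CPM per kb in WT cells and still overlapped. At these depths the counting interval of a gene with 4 to 24 counts in a library, as DPYS and WT CRMP1 had, was wide, so its fold change is less certain than its direction for CRMP1, and for DPYS neither is firm.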
